A study of Mus musculus with 3 samples.

Results

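The genes described here are 42 components and regulators of mitosis: cyclins and the kinase they activate, the spindle checkpoint, the Aurora kinases and their partners, the machinery of anaphase, the kinetochore, the spindle and cleavage furrow, and condensin, together with the proliferation marker Mki67 and topoisomerase Top2a. They and the other gene lists below were picked by name, with earlier results of these data known. All 42 were found by gene symbol among the 54232 gene entries of the count files, many of which had no count in a library. RNA was sequenced from wildtype cortical neurons of CD1 mice, an outbred strain, in 3 cultures with 1 library each. In the first, IKVAV PA, the material was a peptide amphiphile, a molecule that assembles into fibres, bearing the laminin sequence IKVAV. The second, IKVAV PA + PEDOT-S, added a component that the title names PS2 and the library name PEDOT-S_OH, here taken to be the conducting polymer PEDOT-S. The third is a control whose library name is PDL, an abbreviation that the labels do not expand. The treatment field gives peptide amphiphile for the control too, so groups rest on titles and library names. How old the animals were is not given in the sources used here, nor is the time in culture or whether animals were pooled. The labels call each library repeat 3 of its group, and other repeats were not analysed here. With 1 library per group no test between groups could be made, and every difference below is between libraries and has no replicate check.

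A dividing cell condenses its chromosomes, attaches the kinetochore of each sister chromatid to spindle microtubules, waits until the spindle checkpoint is satisfied, then destroys cyclin B and securin so that the sisters part and the cell cleaves. Most of these genes are transcribed mainly in G2 and M phase. Neurons leave the cell cycle for good when they are born, so in cortical cultures mitosis is a property of progenitors, glia and other non-neuronal cells, while a few of these proteins also have roles outside division.

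Many mitotic genes carry a pair of short promoter motifs, the CHR (cell cycle genes homology region, here TTTGAA or TTCGAA) and the CCAAT box (CCAAT), which bind the MuvB complex and NF-Y, respectively. In the windows that RefSeq gives for GRCm38.p6, from 250 bases before to 50 bases after a gene's start, 35 of the 42 genes had an entry. Both strands were searched, each motif on its own, so matches may share bases. A CHR was found in 27 of the 35 (77.1%), against 19.4% of all 27025 genes in the table and 13.0% of the 10235 of them that were expressed in these libraries. A CCAAT box was likewise found in 27 of 35 (77.1%), against 37.9% and 38.8%, and both motifs together in 25 (71.4%), against 7.70% and 5.62%. An E2F-type match (TTCCCGC or TTGGCGC) was found in 7 of 35, against 6.93% and 12.8%. These matches describe the letters only and were not tested against binding.

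The promoters shown are those of the 4 genes with both motifs and the highest mean CPM, once windows with over 30 bases of annotated UTR were left out. Mki67 and Top2a were called lower in both scaffold libraries, and Racgap1 and Smc2 in neither. Each runs 5′ to 3′ on the gene's own strand from 200 bases before the start to 20 after, and capitals mark every CHR and CCAAT box in either orientation.
Mki67: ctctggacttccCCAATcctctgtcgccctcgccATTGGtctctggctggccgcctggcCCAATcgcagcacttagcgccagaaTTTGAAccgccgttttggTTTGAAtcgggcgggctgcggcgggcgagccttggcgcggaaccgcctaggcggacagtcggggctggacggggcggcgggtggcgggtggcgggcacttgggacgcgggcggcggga
Top2a: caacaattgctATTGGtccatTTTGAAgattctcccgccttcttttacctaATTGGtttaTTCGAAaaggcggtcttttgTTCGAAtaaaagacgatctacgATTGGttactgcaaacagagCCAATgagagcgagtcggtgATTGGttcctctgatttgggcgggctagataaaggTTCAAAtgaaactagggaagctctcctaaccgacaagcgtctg
Racgap1: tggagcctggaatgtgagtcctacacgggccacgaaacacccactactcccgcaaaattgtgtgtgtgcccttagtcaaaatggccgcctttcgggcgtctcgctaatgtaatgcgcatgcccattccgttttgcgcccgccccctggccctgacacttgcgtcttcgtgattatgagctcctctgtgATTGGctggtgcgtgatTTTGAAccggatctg
Smc2: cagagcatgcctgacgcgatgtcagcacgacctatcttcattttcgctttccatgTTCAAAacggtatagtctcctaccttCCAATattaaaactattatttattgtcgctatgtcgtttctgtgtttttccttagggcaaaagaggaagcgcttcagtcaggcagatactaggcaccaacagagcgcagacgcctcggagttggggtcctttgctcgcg
The windows lie at chr7:135716360-135716579 on the minus strand for Mki67, at chr11:99024170-99024389 on the minus strand for Top2a, at chr15:99651637-99651856 on the minus strand for Racgap1 and at chr4:52439021-52439240 on the plus strand for Smc2. Within these 220 bases Mki67 has 2 CHR and 3 CCAAT matches, Top2a 4 and 5, and Racgap1 and Smc2 have 1 of each. The 25 genes with both motifs had median log2 ratios of -1.23 in IKVAV PA and -1.18 in IKVAV PA + PEDOT-S, and the 10 without both had -1.09 and -1.17.

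The control library held 78993105 counts, the IKVAV PA library 124425958 and the library with PEDOT-S 79057998. Levels are given in CPM, counts scaled to library size with trimmed-mean factors. A ratio between libraries has a 95% counting interval. It covers counting error alone, and reads that carry no molecular identifier need not be separate molecules. A gene was called lower or higher where that interval lay wholly beyond 1.5-fold, that is beyond 0.585 on the log2 scale. Neuronal markers lay close together in sum, with levels in IKVAV PA and IKVAV PA + PEDOT-S at 103% and 102% of the control. None of 12 was called, which is near the share of all genes compared (3.96% and 4.21% in either direction). Summed levels of other cell types lay further from the control. Of all genes compared, 3.42% were called lower in IKVAV PA and 3.76% in IKVAV PA + PEDOT-S. Progenitor markers summed to 198.6 CPM in IKVAV PA, 220.4 in IKVAV PA + PEDOT-S and 353.1 in the control, or 56.2% and 62.4% of the control, with Nes and Vim called lower of 8 markers expressed. Astrocyte markers were at 60.7% and 64.4%, with 7 and 4 of 9 lower, and oligodendrocyte precursor markers at 31.5% and 25.6%, with 5 and 4 of 6 lower. Aqp4 and Gpr17, 1 of each list and called lower in IKVAV PA, reached 1 CPM in the control only. Slc1a2 (mean 161 CPM) weighs most in the astrocyte sum and was near the control, at log2 ratios of -0.07 and -0.14. Of the next most abundant astrocyte markers, Fabp7 (-1.92 and -1.49) and Slc1a3 (-1.22 and -1.07) were called lower in both. Sox9 (-0.73 and -0.35) was called lower in IKVAV PA only. Not every astrocyte marker was lower: Gfap, named after its values were seen, was called higher in IKVAV PA + PEDOT-S against the control (1.79, interval 1.21 to 2.41). Gfap (1.49) and Aldoc (1.24) were called higher there than in IKVAV PA. Gfap stood at 0.402 CPM in the control, 0.497 in IKVAV PA and 1.39 in IKVAV PA + PEDOT-S, from 32, 62 and 109 counts. It reached 1 CPM in IKVAV PA + PEDOT-S only, so the filter favoured a higher value for it there. Fibroblast markers were at 45.9% and 23.9%, with 3 and 5 of 5 expressed called lower and median log2 ratios of -1.03 and -1.56. Mural and endothelial markers were at 39.1% and 17.7%, with 2 and 3 of 4 expressed called lower and medians of -0.71 and -1.21. Col1a1 (mean 18.4 CPM) and Acta2 (mean 38.3 CPM) weigh most in these 2 sums. Des was listed at 0 in IKVAV PA + PEDOT-S. Myelin markers were at 122% and 193%, with 3 and 6 of 7 called higher (0.54% and 0.447% of all genes). Between the scaffolds 5 of 7 were called higher in IKVAV PA + PEDOT-S (0.331% of all genes). Of 7 microglial markers, 6 were below 1 CPM in every library, and their sum was 2.25 to 2.7 CPM.

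As a group the mitotic genes stood at a little over 55% of their control level in both scaffold libraries. Their summed level was 498.7 CPM in the PDL control, 282.3 in IKVAV PA and 275.3 in IKVAV PA + PEDOT-S, which gives log2 ratios to the control of -0.82 (counting interval -0.84 to -0.80) and -0.86 (-0.88 to -0.83). In IKVAV PA 30 of the 42 genes were called lower, where 3.42% of all 13884 genes compared were, and none was called higher (0.54% of all genes, 3.96% in either direction). In IKVAV PA + PEDOT-S 31 of 42 were called lower (3.76% of all genes) and none higher (0.447%, 4.21% in either direction). The 42 were chosen with earlier results of these data known, so these counts are not independent of that choice. The median log2 ratio over the 42 was -1.20 and -1.18, beside 0.00 and -0.00 over all genes compared. All 42 reached the expression minimum of 1 CPM in at least 1 library, but Ndc80 and Cdc25c did so in the control alone, so their being below it was partly set by that filter. Both scaffolds were set against the same control library, so the values of these comparisons are not independent of each other. Libraries of whole cultures cannot tell fewer dividing cells apart from less of these RNAs per cell. The lower summed levels of progenitor, astrocyte, oligodendrocyte precursor, fibroblast, and mural and endothelial markers went with these ratios. The summed level of myelin markers was above the control instead. The part of these cell types in the result was not tested.

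**Figure D1:**
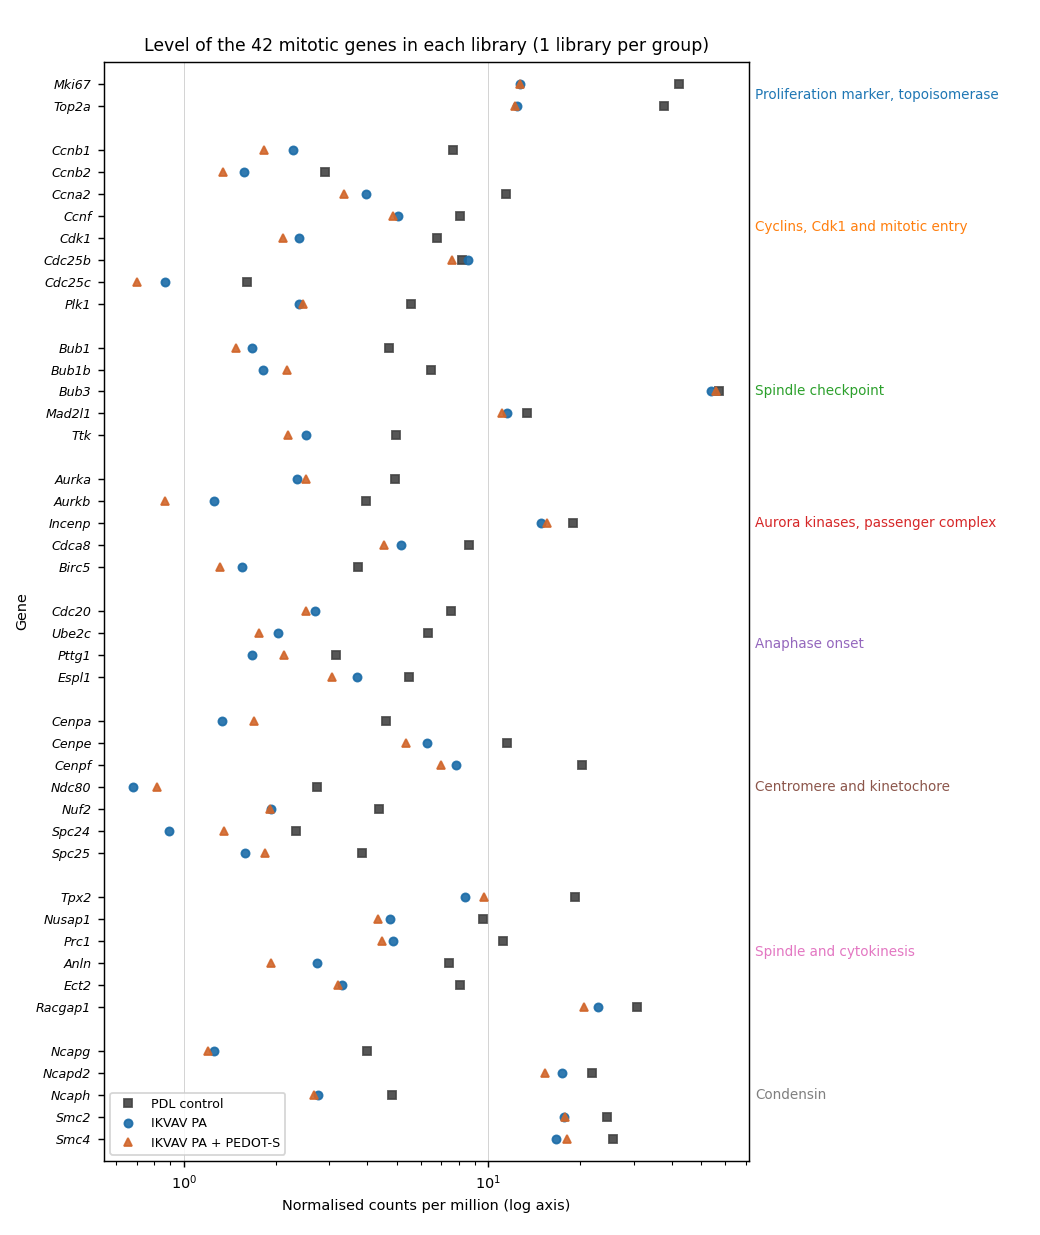
Level of each of the 42 mitotic genes in normalised CPM (log axis), grouped by role, with 1 point per library and no error bars because each group has 1 library. The control squares lie to the right of both scaffold symbols for all genes but Cdc25b, from 1.61 CPM for Cdc25c to 57.4 CPM for Bub3, and the scaffold symbols lie close to each other.

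Mki67, which coats mitotic chromosomes and is the usual stain for cycling cells, and Top2a, the topoisomerase that untangles sister chromatids, showed the widest gap in level. Mki67 (chr7:135689784-135716361) stood at 42.1 CPM in the control, 12.7 in IKVAV PA and 12.6 in IKVAV PA + PEDOT-S. The scaffold libraries were 3.32-fold and 3.33-fold lower, at log2 ratios of -1.73 (-1.82 to -1.65) and -1.74 (-1.84 to -1.63). Top2a (chr11:98992943-99024189) stood at 37.8, 12.5 and 12.2 CPM in the same order, with ratios of -1.60 (-1.69 to -1.51) and -1.63 (-1.74 to -1.52). In both genes the scaffold libraries were all but level and the control stood alone. The pair made up 16.0% of the summed counts of the 42 genes in the control, 8.91% in IKVAV PA and 9.03% in IKVAV PA + PEDOT-S.

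The cyclins and the kinase that drive entry into mitosis were lower in the scaffold libraries, with 5 of 8 genes of this group called in IKVAV PA and 6 of 8 in IKVAV PA + PEDOT-S, at 51.8% and 46.4% of the control in sum. Ccnb1, the main mitotic cyclin B, stood at 7.67 CPM in the control, 2.29 in IKVAV PA and 1.83 in IKVAV PA + PEDOT-S (log2 ratios -1.75, interval -1.95 to -1.54, and -2.07, interval -2.34 to -1.81). Its partner kinase Cdk1 stood at 6.78, 2.39 and 2.11 CPM, with ratios of -1.50 (-1.71 to -1.30) and -1.69 (-1.95 to -1.43). The intervals of cyclin and kinase overlap in each comparison. Ccna2, the cyclin A of S phase and G2, stood at 11.4, 3.96 and 3.35 CPM, and 12.5% of its exonic bases overlap Exosc9, an exosome subunit at 20.8 to 23.8 CPM that was not called, so its ratios of -1.53 and -1.77 are uncertain. Ccnb2, the second cyclin B, was at 2.91, 1.58 and 1.34 CPM (-0.88 and -1.12), called lower in both. Ccnf, an F-box cyclin that directs proteins to degradation, was at 8.06, 5.03 and 4.87 CPM, and its intervals of -0.84 to -0.52 and -0.91 to -0.54 reached inside the 1.5-fold bound.

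Plk1, the polo-like kinase that acts from centrosome maturation to cytokinesis, stood at 5.57 CPM in the control, 2.38 in IKVAV PA and 2.45 in IKVAV PA + PEDOT-S, with ratios of -1.23 (-1.44 to -1.01) and -1.18 (-1.44 to -0.94). The CDC25 phosphatases, which remove the inhibitory phosphates from Cdk1, parted. Cdc25c was at 1.61, 0.867 and 0.703 CPM, from 128, 108 and 55 counts, and was called lower in IKVAV PA + PEDOT-S only (-1.19, interval -1.68 to -0.73), while its IKVAV PA interval of -1.27 to -0.51 reached inside the bound. Its exons overlap a numbered gene model, Gm3550, by 12.7%. Cdc25b was at 8.19, 8.57 and 7.59 CPM, and both of its intervals against the control held 0 (-0.08 to 0.21 and -0.27 to 0.05). It was the 1 gene of the 42 with a point ratio above 0 in IKVAV PA.

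In the spindle checkpoint, which holds anaphase until every kinetochore is attached, the kinases were well below the control and the partners Bub3 and Mad2l1 were near it. Bub1b, the BubR1 protein of the inhibitory complex, stood at 6.47 CPM in the control, 1.81 in IKVAV PA and 2.18 in IKVAV PA + PEDOT-S (log2 ratios -1.83, interval -2.07 to -1.61, and -1.57, interval -1.82 to -1.31). Bub1, the kinase that recruits it, was at 4.71, 1.67 and 1.48 CPM (-1.50 and -1.67), and Ttk, the kinase Mps1 at the head of the checkpoint, at 4.97, 2.51 and 2.20 CPM (-0.99 and -1.18). All 3 were called lower in each scaffold library. Mad2l1, the Mad2 protein that captures Cdc20, was at 13.4, 11.5 and 11.1 CPM, with intervals of -0.33 to -0.10 and -0.41 to -0.15. Bub3, which docks Bub1 and BubR1 on the kinetochore, was at 57.4, 53.8 and 55.8 CPM, and its ratios of -0.09 (-0.15 to -0.04) and -0.04 (-0.10 to 0.02) were the nearest to 0 of this group. Bub3 therefore took a larger part of the summed counts of the 42 genes in the scaffold libraries, 19.1% and 20.3% against 11.5% in the control. Because it outweighs the others, the group as a whole summed to 82.1% and 83.7% of the control although 3 of its 5 genes were called lower in each comparison.

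Aurora kinase A, which builds the spindle poles, and Aurora kinase B, the enzyme of the chromosomal passenger complex, were both called lower in each scaffold library. Aurka stood at 4.93 CPM in the control, 2.36 in IKVAV PA and 2.52 in IKVAV PA + PEDOT-S (-1.06, interval -1.29 to -0.84, and -0.97, interval -1.23 to -0.72). Aurkb stood at 3.97, 1.25 and 0.869 CPM, from 316, 156 and 68 counts, with ratios of -1.66 (-1.95 to -1.38) and -2.19 (-2.59 to -1.81). The latter, a 4.57-fold gap, was the lowest ratio of any of the 42 genes in IKVAV PA + PEDOT-S. Its partners in the complex were uneven. Birc5, the subunit survivin, was at 3.74, 1.56 and 1.32 CPM (-1.27 and -1.51), called lower in both. Cdca8, the subunit borealin, was at 8.65, 5.18 and 4.55 CPM and was called lower in IKVAV PA + PEDOT-S (-0.93, interval -1.12 to -0.74), whereas its IKVAV PA interval ended at the bound (-0.90 to -0.58). Incenp, the scaffold subunit of the complex, was at 19.0, 14.9 and 15.5 CPM, at -0.35 (-0.45 to -0.25) and -0.29 (-0.40 to -0.18), within the bound in both.

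At anaphase the ubiquitin ligase APC/C destroys cyclin B and securin, which frees separase to cut cohesin. Cdc20, the activator of the ligase in mitosis, stood at 7.55 CPM in the control, 2.69 in IKVAV PA and 2.52 in IKVAV PA + PEDOT-S (-1.49, interval -1.69 to -1.29, and -1.58, interval -1.82 to -1.35). Ube2c, its ubiquitin-conjugating enzyme, was at 6.31, 2.04 and 1.76 CPM (-1.63 and -1.84). Of its exonic bases 22.8% overlap Tnnc2, a muscle troponin at no more than 0.0639 CPM in any library. Both of these were called lower against the control in each scaffold library. Pttg1, securin itself, was at 3.15, 1.68 and 2.13 CPM and was called lower in IKVAV PA (-0.91, interval -1.18 to -0.64) but not in IKVAV PA + PEDOT-S (-0.56, interval -0.85 to -0.27). Espl1, separase, went the other way, at 5.47, 3.71 and 3.05 CPM, with intervals of -0.75 to -0.37 in IKVAV PA and -1.08 to -0.61 in IKVAV PA + PEDOT-S, where it was called lower. Set directly against IKVAV PA, the IKVAV PA + PEDOT-S library had ratios of 0.35 (0.05 to 0.65) for Pttg1 and -0.28 (-0.51 to -0.05) for Espl1, neither of which was called. The core subunits of the APC/C and its activator Fzr1 are also used by cells that do not divide. Of these 15 genes 0 were called in either comparison, with median log2 ratios of 0.03 and 0.07. Of all genes compared 3.96% and 4.21% were called in either direction, so a count of 0 among 15 is near that share. Anapc5 stood at 342 CPM in the control, 359.6 in IKVAV PA and 346 in IKVAV PA + PEDOT-S, and Anapc1 at 231, 227 and 251 CPM.

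The centromere and kinetochore genes were low in both scaffold libraries. All 7 were called lower in IKVAV PA and 6 of 7 in IKVAV PA + PEDOT-S, at 41.3% and 40.2% of the control in sum. Cenpf, a large kinetochore protein of late G2, was the most abundant, at 20.3 CPM in the control, 7.83 in IKVAV PA and 6.98 in IKVAV PA + PEDOT-S (-1.37, interval -1.49 to -1.26, and -1.54, interval -1.68 to -1.40). Cenpe, the kinesin that brings chromosomes to the spindle equator, was at 11.5, 6.27 and 5.38 CPM (-0.88 and -1.10). Cenpa, the histone H3 variant that marks the centromere, was at 4.59, 1.33 and 1.70 CPM (-1.79, interval -2.06 to -1.52, and -1.44, interval -1.73 to -1.15). These 3 were called lower against the control in each scaffold library.

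The NDC80 complex, 4 subunits that form the microtubule grip of the kinetochore, was low throughout. Ndc80 stood at 2.74 CPM in the control, 0.682 in IKVAV PA and 0.818 in IKVAV PA + PEDOT-S, from 218, 85 and 64 counts. Its IKVAV PA ratio of -2.00 (-2.38 to -1.64), a 4.01-fold gap, was the lowest of the 42 genes in that library, and its other ratio was -1.74 (-2.17 to -1.33). Nuf2, which pairs with Ndc80 at the microtubule end, was at 4.38, 1.93 and 1.92 CPM (-1.18 and -1.19). At the other end of the complex, Spc25 was at 3.85, 1.59 and 1.84 CPM (-1.28 and -1.07), and Spc24 at 2.34, 0.891 and 1.35 CPM from 186, 111 and 106 counts. Spc24 was called lower in IKVAV PA (-1.39, interval -1.74 to -1.04) but in IKVAV PA + PEDOT-S its interval of -1.14 to -0.43 reached inside the bound. The 4 subunits bind in equal numbers, and their ratios to the control spanned -2.00 to -1.18 in IKVAV PA and -1.74 to -0.79 in IKVAV PA + PEDOT-S.

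**Figure D2:**
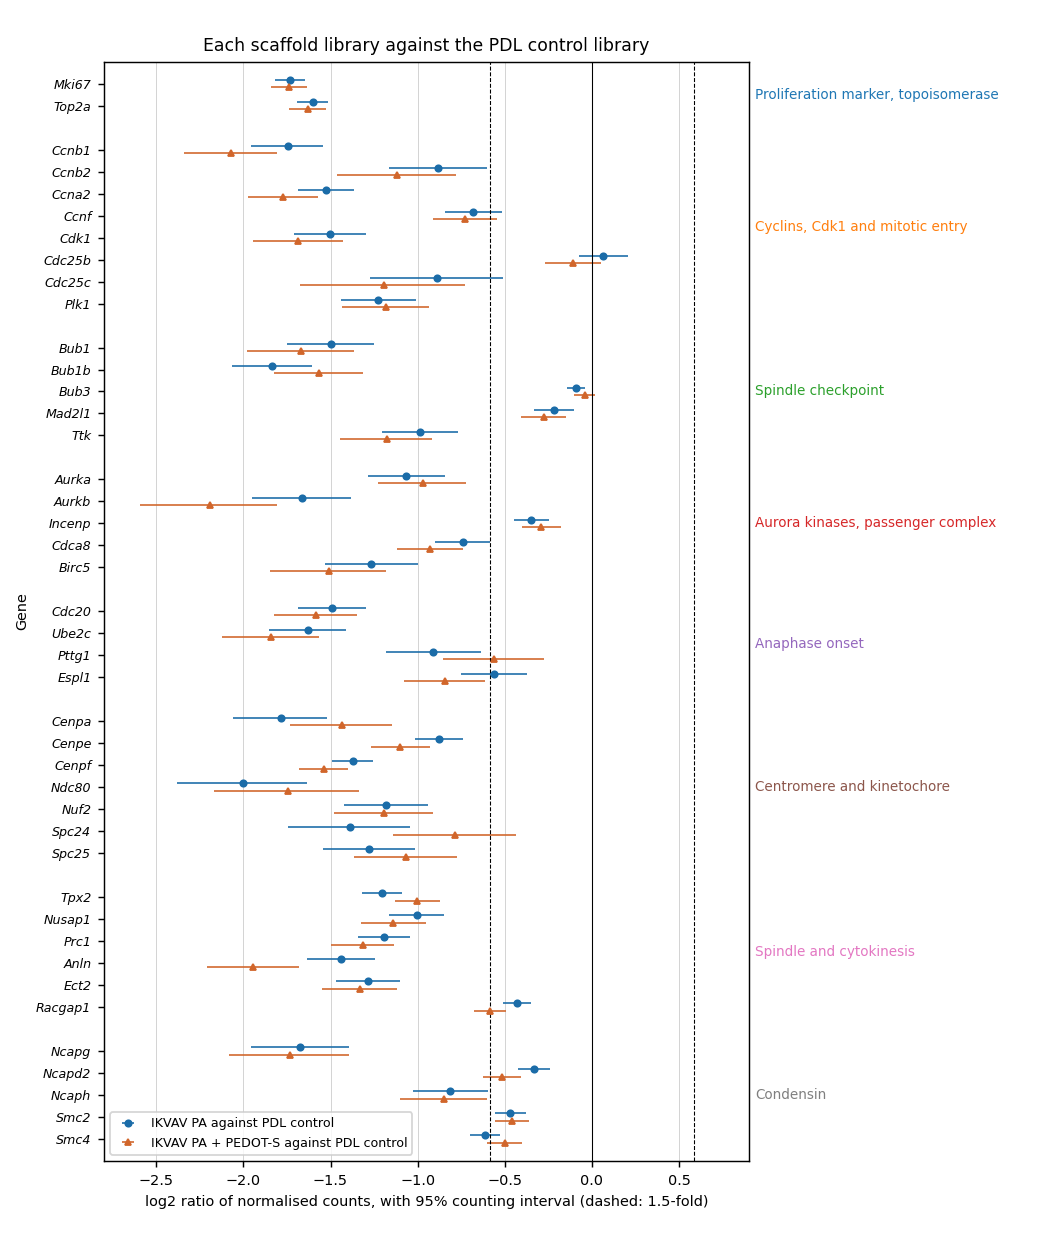
log2 ratio of each scaffold library to the PDL control library for the 42 mitotic genes, with horizontal bars for the 95% counting interval and dashed lines at 1.5-fold. Genes whose bar lies wholly left of the left dashed line were called lower, 30 for IKVAV PA (circles) and 31 for IKVAV PA + PEDOT-S (triangles), and no bar lies right of the right line.

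Among proteins of the spindle and the cleavage furrow, 5 of 6 were called lower in each scaffold library. Tpx2, which activates Aurora A and nucleates spindle microtubules, stood at 19.3 CPM in the control, 8.38 in IKVAV PA and 9.63 in IKVAV PA + PEDOT-S (-1.20, interval -1.32 to -1.09, and -1.0, interval -1.13 to -0.87). Nusap1, a microtubule bundler near chromosomes, was at 9.57, 4.77 and 4.34 CPM (-1.01 and -1.14). Prc1, which bundles the antiparallel microtubules of the midzone, was at 11.1, 4.86 and 4.47 CPM (-1.19 and -1.31), and 11.1% of its exonic bases overlap Rccd1, at 7.41 to 8.08 CPM and not called, so its values are uncertain. For cleavage, Anln, the anillin that links actin and septins in the furrow, was at 7.42, 2.74 and 1.93 CPM (-1.44, interval -1.64 to -1.24, and -1.94, interval -2.21 to -1.68). Ect2, the exchange factor that switches on RhoA there, was at 8.07, 3.31 and 3.21 CPM (-1.28 and -1.33). Its binding partner Racgap1, the GTPase-activating subunit of centralspindlin, stood apart at 30.8, 22.9 and 20.5 CPM, with ratios of -0.43 (-0.51 to -0.35) and -0.59 (-0.68 to -0.50). It was not called, although the latter ratio lay just past the bound. Ect2 and Racgap1 act as a pair, yet the intervals of their ratios do not overlap in either comparison.

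Condensin I, the ring that compacts mitotic chromosomes, had 2 of 5 subunits called lower in each scaffold library. Ncapg, a regulatory subunit, stood at 3.99 CPM in the control, 1.25 in IKVAV PA and 1.20 in IKVAV PA + PEDOT-S (-1.67, interval -1.96 to -1.39, and -1.73, interval -2.08 to -1.40). Of its exonic bases 13.4% overlap Lcorl, which at 110.0 to 119.7 CPM was about level in the libraries, so the value is uncertain. Ncaph, the kleisin that closes the ring, was at 4.83, 2.75 and 2.68 CPM (-0.81, interval -1.03 to -0.60, and -0.85, interval -1.10 to -0.60), called lower in both. Ncapd2, the other regulatory subunit, was at 21.9, 17.4 and 15.3 CPM (-0.33 and -0.52). The SMC subunits, shared with condensin II, were at 24.5, 17.7 and 17.8 CPM for Smc2 (-0.47 and -0.46) and 25.6, 16.7 and 18.1 CPM for Smc4 (-0.61, interval -0.70 to -0.52, and -0.50, interval -0.60 to -0.40). Those 3 were not called in either comparison, although the IKVAV PA ratio of Smc4 lay just past the bound. Of the subunits that only condensin II uses, 0 of 3 were called: Ncaph2 stood at 75.1, 73.6 and 76.2 CPM, with 19.7% of its exonic bases shared, Ncapd3 at 24.6, 25.4 and 22.8 CPM, and Ncapg2 at 16.2, 11.6 and 15.4 CPM. Cohesin, the ring that holds sisters together and also shapes interphase chromatin, had 0 of 9 genes called, its loader and regulators Nipbl, Wapl, Pds5a and Pds5b included, with medians of -0.02 in both comparisons. For lists this short a count of 0 is near the share of all genes called. Rad21, the cohesin subunit that separase cuts, stood at 198, 179 and 188 CPM. The condensin I subunits called lower were thus Ncapg, whose value is uncertain, and Ncaph, while the other regulatory subunit Ncapd2 was not called. The interval of Ncaph overlapped that of Smc4 in IKVAV PA and that of Ncapd2 in IKVAV PA + PEDOT-S, so the calls do not part the subunits by type.

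The genes also differed in level. Per kilobase of exon, the control levels ran from 0.327 CPM for Cdc25c and 0.422 for Ndc80 to 4.91 for Smc4 and 8.19 for Bub3. Divided by their mean level per kilobase over the 3 libraries, the lowest 14 genes had median log2 ratios of -1.38 in IKVAV PA and -1.47 in IKVAV PA + PEDOT-S, the middle 14 of -0.99 and -1.11, and the highest 14 of -0.81 and -0.79. Called lower were 12 and 13 of the lowest, 11 and 11 of the middle, and 7 and 7 of the highest 14. Part of this order is built in, because the mean that splits the genes includes the scaffold libraries and so is lower where they are lower, and because Ndc80 and Cdc25c, both in the lowest 14, were kept through the control library alone. Level alone did not order them, since Mki67 and Top2a, both at 4.19 CPM per kilobase in the control, had ratios below -1.5, while Smc2 at 4.47 and Racgap1 at 4.36 did not. The counting intervals did not all hold 1 ratio either, but they cover counting error alone. The counting intervals of 8 genes held the ratio of the summed counts in IKVAV PA, those of 25 lay below it and those of 9 above. In IKVAV PA + PEDOT-S the counts were 9, 24 and 9.

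**Figure D3:**
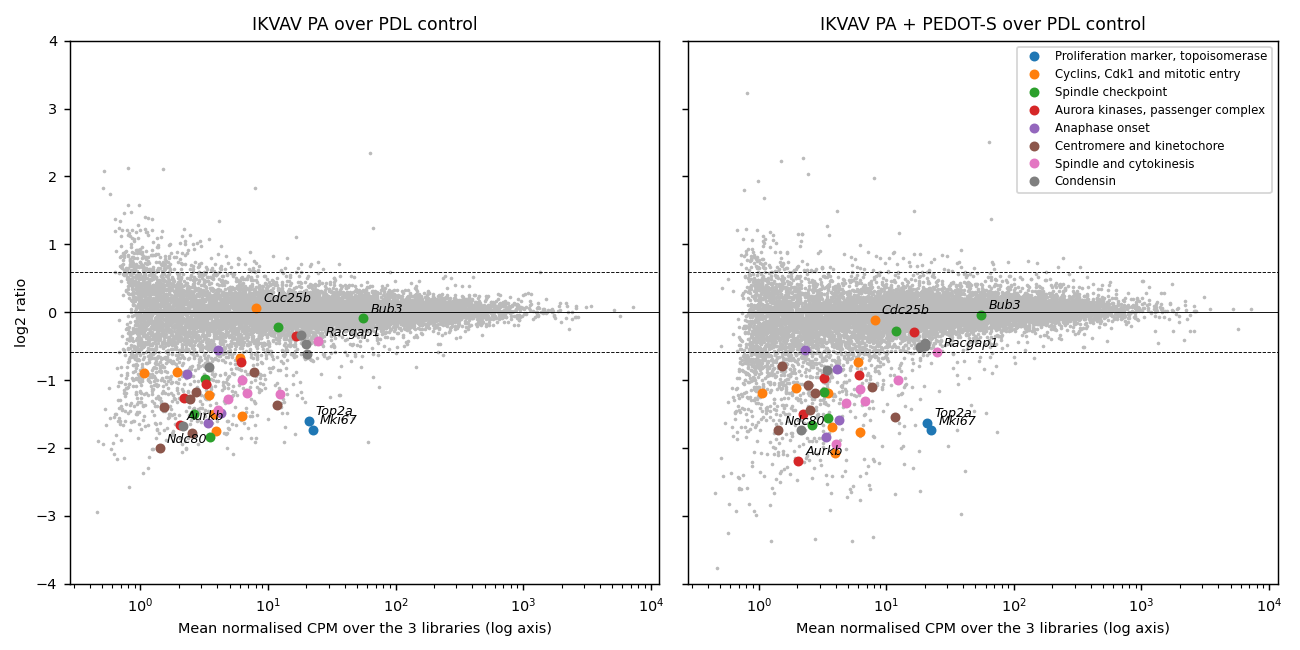
log2 ratio to the PDL control library against the mean normalised CPM over the 3 libraries (log axis), for the 13884 genes compared (grey) and the 42 mitotic genes (coloured by role), with dashed lines at 1.5-fold. The 42 genes lie mostly below the lower dashed line at 1 to 40 CPM, and Bub3 lies on the centre line at a mean of 55.7 CPM.

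Between the scaffold libraries none of the 42 genes was called lower (2.02% of all genes) or higher (0.331%, 2.35% in either direction). A count of 0 among 42 is near that share, so it says little about these genes in particular. The median log2 ratio of IKVAV PA + PEDOT-S to IKVAV PA was -0.08, beside 0.01 over all genes compared, and the summed level gave -0.04 (-0.06 to -0.01). The counting intervals of 27 genes held 0, where 40.1% of all genes compared did, those of 10 lay below 0 and those of 5 above. Aurkb had the lowest ratio, 1.44-fold (-0.53, interval -0.96 to -0.11), followed by Anln (-0.50, interval -0.79 to -0.22). Spc24 had the highest, 1.52-fold (0.60, interval 0.21 to 1.0), followed by Cenpa (0.35, interval 0.01 to 0.69) and Pttg1 (0.35, interval 0.05 to 0.65). The intervals of low-count genes allow sizeable gaps, for example for Ndc80 from -0.23 to 0.75 and for Cdc25c from -0.80 to 0.18. Mki67 (-0.00, interval -0.12 to 0.11) and Top2a (-0.03, interval -0.15 to 0.09) were bounded more tightly. The genes named as called against the control in 1 scaffold library only (Pttg1, Spc24, Cdc25c, Cdca8 and Espl1) were thus not called between the scaffolds.

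**Figure D4:**
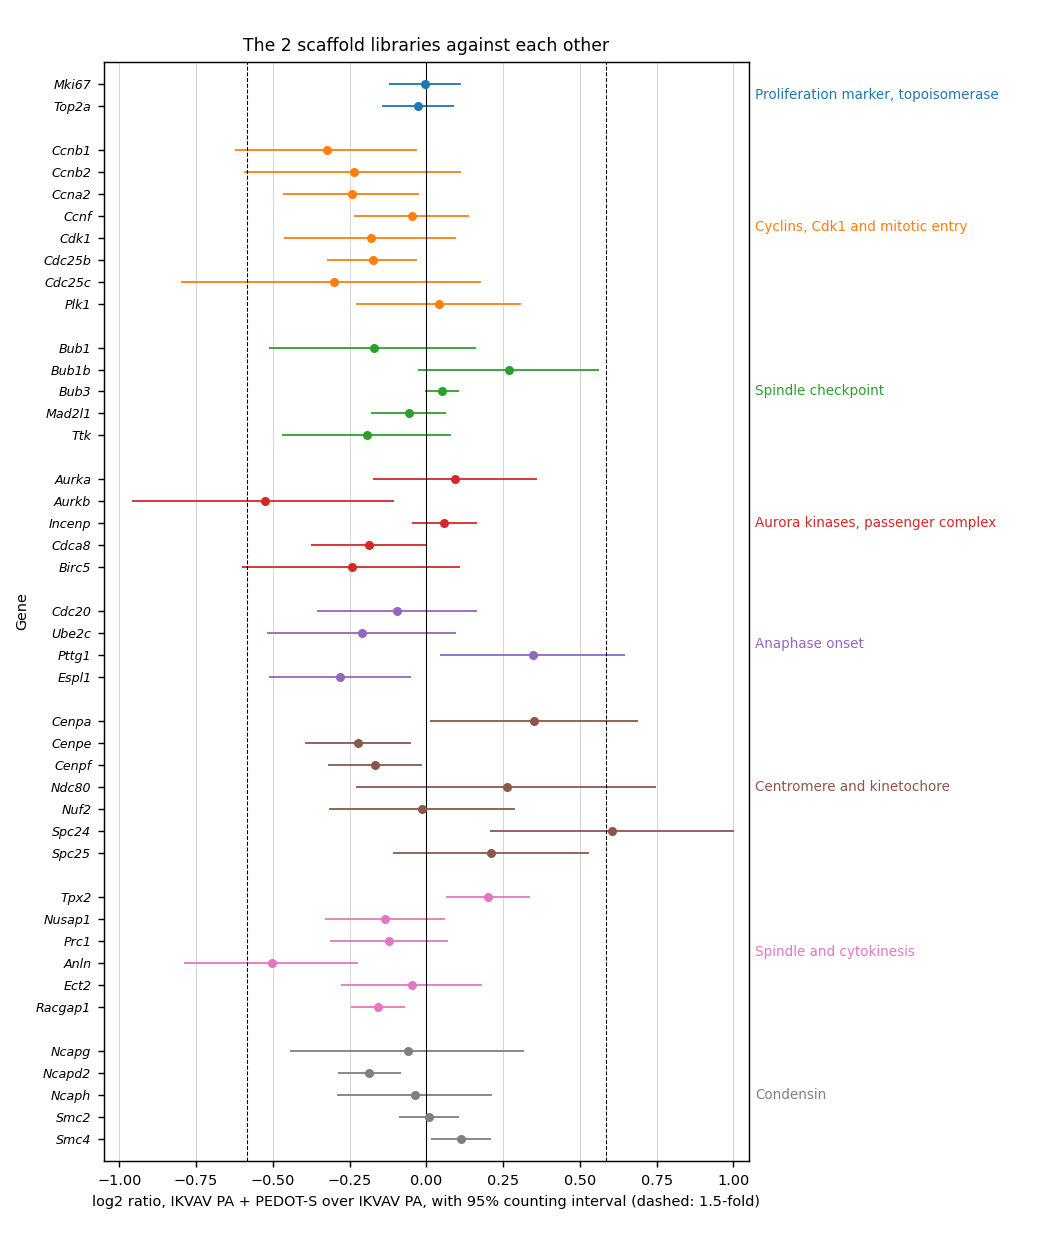
log2 ratio of the IKVAV PA + PEDOT-S library to the IKVAV PA library for the 42 mitotic genes, with bars for the 95% counting interval and dashed lines at 1.5-fold. The points run from -0.53 for Aurkb to 0.60 for Spc24, and no bar lies wholly beyond a dashed line.

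Of 40 further mitotic genes, 39 were expressed, and 24 were called lower in IKVAV PA (3.42% of all genes) and 26 in IKVAV PA + PEDOT-S (3.76%), with medians of -1.07 and -1.06. In both counts 5 genes, named after their values were seen (Haspin, Sgo1, Sgo2a, Spdl1 and Troap), reached 1 CPM in the control only, so the filter favoured a lower value for them, and 35.0% of the exonic bases of Sgo2a are shared with another gene. The summed level of the list was 78.7% and 84.5% of the control. Zwint alone made up 458 of its 692 CPM in the control, so this sum says little about the other genes listed. The most abundant genes of the list were near the control. Zwint, a kinetochore protein also abundant in neurons, stood at 458 CPM in the control, 399 in IKVAV PA and 445 in IKVAV PA + PEDOT-S (-0.20 and -0.04), and Hjurp, the chaperone that loads Cenpa, at 27.9, 23.7 and 24.6 CPM (-0.23 and -0.18). Cit, the citron kinase of the midbody, was at 17.9, 17.2 and 13.6 CPM, and Cks1b, a Cdk1-binding subunit, at 13.1, 10.7 and 11.5 CPM. The chaperone of Cenpa was thus within the bound while Cenpa itself was called lower.

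Among 12 mitotic kinesins, 8 were called lower in IKVAV PA (3.42% of all genes) and 11 in IKVAV PA + PEDOT-S (3.76%), with medians of -1.03 and -1.29, and 1 of these, Kif18b, reached 1 CPM in the control only. Kif11, which pushes the spindle poles apart, stood at 13.4, 5.27 and 5.0 CPM in the control, IKVAV PA and IKVAV PA + PEDOT-S, and Kif4, a chromosome-arm motor with 15.1% of its exonic bases shared, at 7.36, 3.51 and 3.60 CPM. Kif22, a second arm motor, was at 6.25, 4.08 and 2.95 CPM. Kif18a, which dampens chromosome oscillations, was the exception. At 8.17, 4.12 and 7.63 CPM it was called lower in IKVAV PA (-0.99, interval -1.16 to -0.82), was close to the control in IKVAV PA + PEDOT-S (-0.10, interval -0.26 to 0.06), and was called higher between the scaffolds (0.89, interval 0.71 to 1.06).

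DNA replication genes, used a phase earlier, were also in part lower. Called lower were 6 of 30 expressed in IKVAV PA (3.42% of all genes) and 8 in IKVAV PA + PEDOT-S (3.76%), with medians of -0.41 and -0.45, and 1 of these, Cdc6, reached 1 CPM in the control only. Rrm1, the large subunit of ribonucleotide reductase, stood at 46.2 CPM in the control, 34.7 in IKVAV PA and 38.6 in IKVAV PA + PEDOT-S. Pcna, the sliding clamp, was at 35.1, 28.7 and 29.5 CPM, and Orc6, an origin recognition subunit, at 24.0, 25.3 and 24.1 CPM. No test of the difference between the replication and mitotic genes was made.

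Of 22 regulators of G2 and M phase transcription, 4 were called lower in IKVAV PA (3.42% of all genes) and 5 in IKVAV PA + PEDOT-S (3.76%), with medians of -0.09 and 0.01. The most abundant were level, among them Nfya, a subunit of the CCAAT-binding factor NF-Y, at 103 CPM in the control, 98.5 in IKVAV PA and 117 in IKVAV PA + PEDOT-S, Nfyb, a second subunit, at 42.2, 42.9 and 43.4 CPM, and Tfdp1, the partner of E2F proteins, at 68.6, 65.6 and 74.7 CPM. Those called lower, named after their values were seen, were Foxm1, Mybl2, E2f2 and E2f8 in both and Rbl1 in IKVAV PA + PEDOT-S. Foxm1, a forkhead activator of mitotic genes, stood at 10.1, 5.13 and 3.95 CPM (-0.98, interval -1.14 to -0.83, and -1.36, interval -1.56 to -1.17). Mybl2, the B-Myb protein that joins MuvB in dividing cells, was at 2.66, 1.17 and 1.39 CPM (-1.18 and -0.93). E2f2 and E2f8 reached 1 CPM in the control only, so the filter favoured a lower value for them. Of E2f8's exonic bases 11.2% are shared with another gene, so its value is uncertain.

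**Figure D5:**
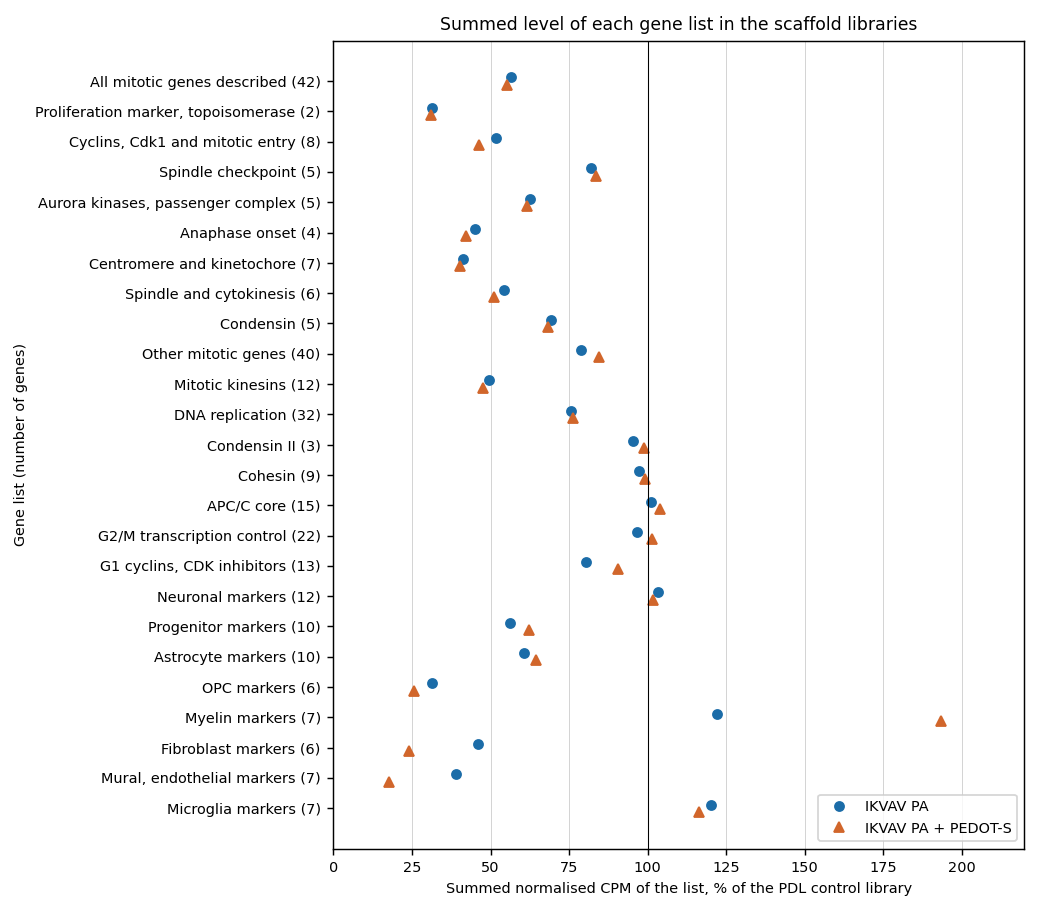
Summed normalised CPM of each gene list in the IKVAV PA library (circles) and the IKVAV PA + PEDOT-S library (triangles), as a percentage of the PDL control library (vertical line at 100), with the number of genes listed in brackets and no error bars because each group has 1 library. The 42 mitotic genes lie at 56.6% and 55.2%, the APC/C core list (with Fzr1), the cohesin list and neuronal markers within 4% of the control, and the astrocyte, progenitor and oligodendrocyte precursor (OPC) markers between 25.6% and 64.4%.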

How the data were processed

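Gene counts of 3 RNA-seq libraries were analysed. The deposited values are whole-number counts per gene, not normalised, and per the submitters' processing notes DESeq2 1.14.1, HTSeq 2.0.2, STAR 2.7.5 and cutadapt 4.2 were used on mm10. The strand setting is not given in the sources used here, nor is the annotation, so a gene sharing over 10% of its exonic bases (GENCODE M21) was marked uncertain. Per the labels' protocols a total RNA kit was used, whereas the molecule field reads polyA. Genes with at least 1 CPM in at least 1 library were kept (13884), library sizes were scaled with TMM factors (edgeR 4.0.16, R 4.3.3: 1.01 for the control, 1.00 for IKVAV PA and 0.990 for IKVAV PA + PEDOT-S), and each ratio was given an exact (Clopper-Pearson) 95% counting interval. With no residual degrees of freedom, edgeR's and DESeq2's tests could not be made. The calculation was tested on simulated data. All 42 genes are named, and of other lists up to 4 genes with the highest mean CPM. Promoters were printed for the 4 genes with both motifs and the highest mean CPM, leaving out windows with over 30 bases of annotated UTR. The members and lists were chosen with earlier results of these data known. Alternatives were other scaling, filters, bounds, thinning, a prior count and leaving out shared exons.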

Additional observations from a re-analysis of the deposited data

How the results depend on the processing

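No paired analysis was possible because the groups share only 1 replicate number, and with 1 library per group none could be left out. The alternatives run were DESeq2 1.42.0 size factors, total counts, scaling to neuronal markers, a minimum of 5 CPM or none, a 2-fold bound, thinning to the smallest total, a prior count of 2 and leaving out shared exons. No ratio of the 42 genes that was called changed sign. The largest shift by a scaling was -0.048, and filters and bounds leave a ratio as it is, so these could not have changed a sign. The number of genes called lower stayed within 1.5 times except as follows. With the 5 CPM minimum, which left 28 of the 42 genes, 17 were called lower in IKVAV PA and 19 in IKVAV PA + PEDOT-S. With the 2-fold bound 18 were called lower in IKVAV PA + PEDOT-S, while the 21 in IKVAV PA stayed within 1.5 times. The summed log2 ratio of IKVAV PA + PEDOT-S to the control was -0.88 with total counts, -0.90 with neuronal scaling and -0.82 without shared exons, and that of IKVAV PA was -0.79 without shared exons. Between the scaffolds it was -0.074 with neuronal scaling. After thinning, Ccnb2, Pttg1 and Ncaph were no longer called in IKVAV PA, where 27 were. Cdca8 in IKVAV PA was called with total counts and with neuronal scaling, and Ccnf in IKVAV PA + PEDOT-S with neuronal scaling. Depth limits the genes near 1 CPM most, since the lowest count was 55.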

Other observations

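Among 13 cyclins, kinases and inhibitors of G1, 12 were expressed, and 5 were called lower in each scaffold library against the control (3.42% of all genes in IKVAV PA and 3.76% in IKVAV PA + PEDOT-S). Named after their values were seen, Ccnd1, Cdk2, Cdkn2b and Cdkn2c were called in both, Ccnd2 in IKVAV PA and Cdk6 in IKVAV PA + PEDOT-S. The value of Ccnd1 is uncertain because 23.4% of its exonic bases are shared with another gene, and Cdkn2b reached 1 CPM in the control only, so the filter favoured a lower value for it. Ccnd2, a D-type cyclin of progenitors, stood at 92.4 CPM in the control, 47.6 in IKVAV PA and 61.1 in IKVAV PA + PEDOT-S (log2 ratios -0.96, interval -1.01 to -0.91, and -0.60, interval -0.65 to -0.54). Cdk2, the kinase of S phase entry, stood at 2.66, 1.23 and 1.03 CPM. Cdkn1b, the inhibitor p27 that is abundant in neurons, stood at 175, 147 and 165 CPM and was within the bound in both, as was Cdkn1a, the inhibitor p21, at 52.9, 45.5 and 45.0 CPM. The only gene of this list called higher against the control was Cdkn1c, the inhibitor p57, at 8.69, 9.40 and 15.8 CPM. It was called higher in IKVAV PA + PEDOT-S (0.447% of all genes), and 30.7% of its exonic bases are shared with another gene. Between the scaffolds, Cdkn1c was called higher in IKVAV PA + PEDOT-S (0.75, 0.331% of all genes) and Ccnd1 lower (-0.88, 2.02% of all genes).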
